A study of Mus musculus with 9 samples.

Results

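The 10 genes described here encode the enzymes of the urea cycle and of the nitrogen and amino acid metabolism that is laid out in zones across the liver lobule. They are Cps1, Otc, Ass1, Asl and Arg1, whose products carry ammonia into urea, Gls2 and Glul, which release and fix ammonia at glutamine, Hal and Sds, which break down histidine and serine, and Pck1, which commits carbon to glucose. They were taken by name from a fixed list, as 10 of the 53713 lines of the gene table, and all 10 were found.

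Liver cells of C57BL/6J mice aged 6-8 weeks were profiled by single-cell RNA sequencing in microwells (Singleron GEXSCOPE), where the poly-A end of each transcript carries a unique molecular identifier (UMI). Carbon tetrachloride (CCl4) is a toxin that kills hepatocytes around the central vein and scars the liver when injected repeatedly. Wild-type mice received it for 0, 2 or 4 weeks, with 1 sample at each time. The group labelled CluKO, for the gene of the secreted chaperone clusterin, received human recombinant clusterin during CCl4 injection, of unstated length. Its 6 samples share 1 matrix in which no cell carries a sample name, and the design text names 3 such mice without saying how they map to the samples. All levels below come from that matrix, which counts as 1 pooled sample, so no test of any difference was possible. The rows of the wild-type matrices are not paired with gene names in the files used here, and no level across CCl4 time or against wild type was analysed. Clu itself stood at 2181 CPM (UMI counts scaled to a total of 1000000) in hepatocytes and 286 CPM in the other cells. Clu RNA was thus counted under this label, and counts at the poly-A end do not show whether the gene was intact. The genotype was not tested, and the cells are called those of the matrix labelled CluKO.

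In the intact lobule, blood flows from the portal vein to the central vein. Periportal hepatocytes take up ammonia and amino acids and make urea with a chain that starts at mitochondrial carbamoyl phosphate synthetase (Cps1) and ornithine transcarbamylase (Otc), goes on in the cytosol through argininosuccinate synthetase (Ass1) and lyase (Asl), and ends when arginase (Arg1) splits arginine into urea and ornithine. Ammonia that escapes is fixed by glutamine synthetase (Glul) in a thin rim of hepatocytes next to the central vein. Liver glutaminase (Gls2), histidine ammonia-lyase (Hal) and serine dehydratase (Sds) are known as periportal enzymes that feed the cycle, and phosphoenolpyruvate carboxykinase (Pck1) as a periportal enzyme of fasting. Outside hepatocytes, Arg1 is a familiar gene of alternatively activated macrophages, and Ass1 rebuilds arginine in many cell types.

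Promoters are shown for 3 genes on which the zonal results turn: Hal, which was on the periportal side, Glul, on the pericentral side, and Pck1, on neither. RefSeq (GRCm38.p6) had promoters for 5 of the 10 genes, Otc, Ass1, Glul, Hal and Pck1, and the 250 bases before the start were read from it. All 3 lie on the plus strand, Hal at chr10:93488518-93488767, Pck1 at chr2:173152823-173153072 and Glul at chr1:153899679-153899928. Capitals mark matches on either strand to 5 short letter patterns.
Hal: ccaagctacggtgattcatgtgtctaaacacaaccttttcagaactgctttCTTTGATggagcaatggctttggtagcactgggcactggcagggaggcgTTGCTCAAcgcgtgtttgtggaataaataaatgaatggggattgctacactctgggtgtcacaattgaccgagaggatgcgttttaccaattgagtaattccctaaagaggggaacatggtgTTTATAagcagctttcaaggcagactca
Pck1: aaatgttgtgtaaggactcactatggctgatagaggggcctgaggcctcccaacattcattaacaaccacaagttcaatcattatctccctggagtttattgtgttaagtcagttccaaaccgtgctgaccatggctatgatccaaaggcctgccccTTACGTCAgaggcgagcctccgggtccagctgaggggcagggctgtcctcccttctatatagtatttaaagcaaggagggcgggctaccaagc
Glul: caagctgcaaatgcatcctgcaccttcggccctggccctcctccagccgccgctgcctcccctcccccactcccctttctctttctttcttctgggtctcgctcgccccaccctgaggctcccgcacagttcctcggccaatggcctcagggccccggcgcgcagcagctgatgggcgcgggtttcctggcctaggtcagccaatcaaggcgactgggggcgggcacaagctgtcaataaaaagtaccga

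The patterns were the cyclic AMP response type TNACGTCA (found in 2.52% of 32851 promoters of this length), the C/EBP type TTGCNNAA (9.56%), the HNF4 type CAAAGTCCA (0.384%), the TCF/LEF type CTTTGAT (3.21%) and the TATA type TATAAA (12.4%). Pck1 held the cyclic AMP type beginning 93 bases before the start. Hal held a TCF/LEF type at 199 bases, a C/EBP type at 150 bases and, on the minus strand, a TATA type at 28 bases. No matches overlapped, and none was found in the windows of Glul, Ass1 and Otc. A match describes letters and does not show that a factor binds.

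Hepatocytes were gated as cells with at least 1% of their UMIs from 15 secreted-protein genes, none of them among the 10. This gave 643 of 4616 kept cells (13.9%), with a median of 13 of the 15 markers and of 3309 UMIs per cell, against 5200.5 UMIs in the 3888 other cells. Ptprc, the pan-leukocyte gene, stood at 14.1 CPM in them and 394 CPM elsewhere. Their albumin (Alb) was at 7201 CPM against 245 CPM. The gate cuts a continuous range, with 122 cells between 0.5% and 1% and 167 between 1% and 2%. The median mitochondrial share was 0.103% in hepatocytes and 1.69% in other cells.

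Of the 10 genes, 9 were at least 2-fold higher in hepatocytes than in all other cells, and Glul was lower. Among 13513 genes that reached 30 UMIs on either side, 7.93% were as much higher and 11.9% as much lower, by the ratio of CPM with 20 CPM added to each side. The median log2 ratio was 3.13 over the 10 genes and -0.15 over all genes. Levels are sums of UMI counts, and their 95% intervals cover counting error only, not differences between mice.

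The urea cycle enzymes were all hepatocyte genes. Cps1 (chromosome 1, 67123026 to 67231259, plus strand, GRCm38, as for all positions here) stood at 141 CPM in hepatocytes and 6.94 CPM elsewhere, a 20.4-fold difference (95% interval 17.0 to 24.5). Otc (chromosome X, 10252305 to 10321024, plus strand) stood at 447 against 11.8 CPM. Ass1 (chromosome 2, 31470207 to 31520672, plus strand) had the widest reach, with a UMI in 94.9% of hepatocytes and in 29.6% of the other cells. Its level was 3662 against 122 CPM. Asl (chromosome 5, 130011258 to 130029247, minus strand) showed the smallest fold among the 5, at 270 against 35.2 CPM. Arg1 (chromosome 10, 24915221 to 24927484, minus strand) stood at 1111 against 93.2 CPM.

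The genes of ammonia release from glutamine, of amino acid breakdown and of glucose synthesis were as uneven. Gls2 (chromosome 10, 128194457 to 128210004, plus strand) was 52.3-fold higher in hepatocytes, at 158 against 3.01 CPM. Sds (chromosome 5, 120476526 to 120483932, plus strand) was 53.0-fold higher, at 477 against 9.0 CPM, and Pck1 (chromosome 2, 173153048 to 173159273, plus strand) 35.7-fold, at 663 against 18.6 CPM. Hal (chromosome 10, 93488768 to 93519304, plus strand) was the least abundant of the 10 in the whole matrix, with 425 UMIs, and stood at 77.7 against 7.46 CPM. Sds overlaps the lysosomal gene Plbd2 on the opposite strand and Gls2 overlaps Spryd4. The sources used here do not say whether counting used strand, so reads of such pairs may not be told apart.

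Glul (chromosome 1, 153899944 to 153909723, plus strand) went the other way, with 62.2 CPM in hepatocytes and 250 CPM in the other cells, 4.02-fold lower. A Glul UMI was found in 57.7% of the other cells, and no hepatocyte held more than 12. No hepatocytes with many Glul UMIs, such as the pericentral rim would give, were found among the gated cells. The glutamate carrier Slc1a2, known from the same rim, gave 1 UMI in all hepatocytes together.

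**Figure D1:**
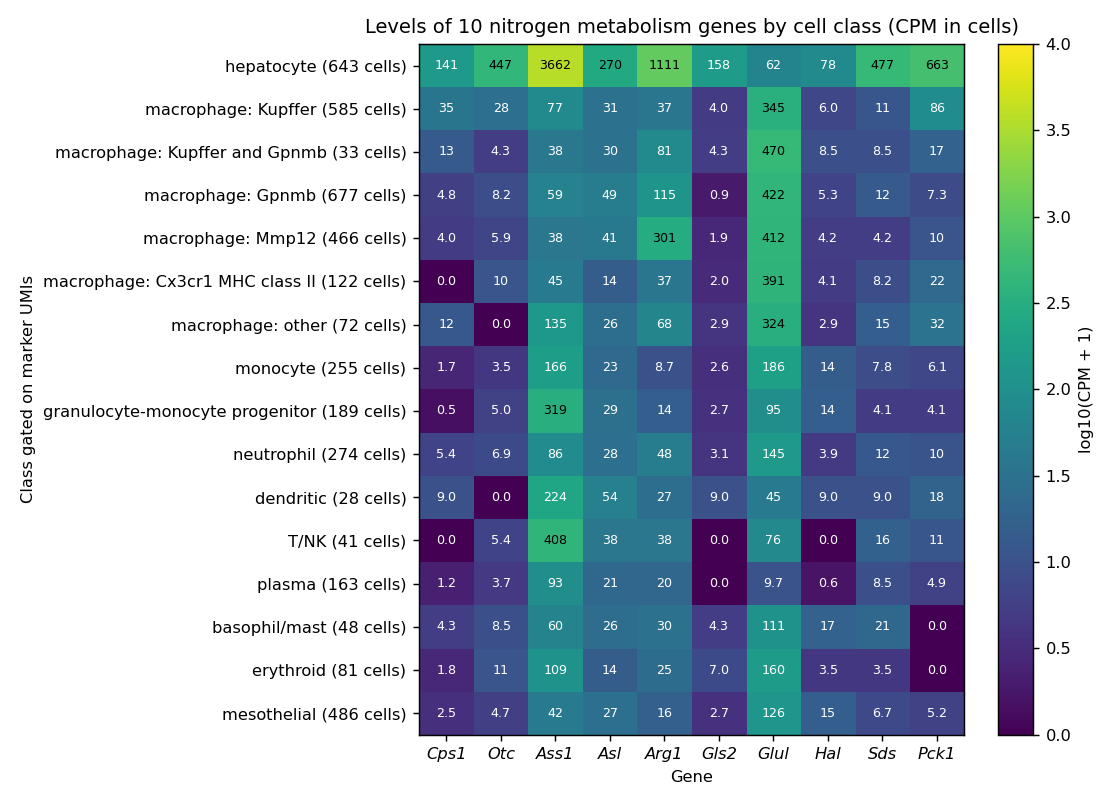
Level of each gene (columns, CPM, printed in the cells and coloured as log10 of CPM + 1) in the 16 classes of at least 25 gated cells (rows). Hepatocytes are highest for every gene except Glul, which is highest in macrophages, while Arg1 at 301 CPM in Mmp12 macrophages and Ass1 at 408 CPM in T and NK cells are the highest values outside hepatocytes for those genes.

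A wider list of 74 genes of nitrogen metabolism and its regulators set these values in context. Of its 67 genes with enough counts, 39 were at least 2-fold higher in hepatocytes, 6 were lower and 22 lay between, with a median log2 ratio of 1.37. Among the highest were Fbp1, a gluconeogenic phosphatase (1978 against 45.3 CPM), Tat, which starts tyrosine breakdown (1393 against 32.7 CPM), Hpd of the same route, and Cth of the route from methionine to cysteine. The lower genes included the amino acid carriers Slc3a2 (18.0 against 181 CPM), Slc1a5 and Slc38a2, the polyamine enzyme Sat1 (213 against 674 CPM) and the Wnt effector Tcf7l2.

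To look across the lobule, hepatocytes were ranked by the share of 12 periportal genes among the UMIs of 12 periportal and 13 pericentral genes, none of them among the 10. The 603 hepatocytes with at least 10 such UMIs were divided into a pericentral group of 202 cells, a middle group of 200 and a periportal group of 201, with median periportal shares of 5%, 25% and 60%. These groups are ranges of one score and not cell types, and position in tissue was not measured. Mup20 made up 63.5% of the periportal UMIs and Akr1c6 48.0% of the pericentral ones. Cyp2e1, a defining pericentral gene that is part of the score, stood at 1156, 723 and 211 CPM from the pericentral to the periportal group, and periportal Cyp2f2, also part of it, at 12.4, 67.5 and 425 CPM.

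Between the outer groups, 5 of the 10 genes were at least 2-fold higher on the periportal side, Sds, Gls2, Hal, Arg1 and Cps1. Glul was lower, and Otc, Ass1, Asl and Pck1 lay within 2-fold. Over 4275 genes with enough counts, 4.07% were as much higher and 1.36% as much lower. The median log2 ratio was 0.96 over the 10 genes and -0.13 over all genes.

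Within the urea cycle the steepness differed from enzyme to enzyme. Arg1 stood at 605 CPM in the pericentral, 933 in the middle and 1803 in the periportal group, so that the outer groups differed 2.98-fold (95% interval 2.71 to 3.29). Cps1, at 98.2, 111 and 223 CPM, differed 2.27-fold (1.77 to 2.95). Pericentral and middle groups overlapped in their counting intervals for Cps1, while all 3 groups stood apart for Arg1. Otc showed the same shape as Cps1, at 354, 337 and 670 CPM, a 1.89-fold difference (1.65 to 2.17). Ass1 differed 1.71-fold (1.63 to 1.80), at 2898, 3111 and 4958 CPM. For Cps1, Otc and Ass1 the step lay between the middle and the periportal group. Asl was level, at 258, 238 and 284 CPM, with a fold of 1.10 and an interval of 0.917 to 1.32 that holds no difference of 2-fold.

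The enzymes that hand nitrogen to the cycle had the steepest patterns. Sds, which deaminates serine and threonine, stood at 62.0, 244 and 1102 CPM, a 17.8-fold difference (13.7 to 23.5). Hal, which opens histidine breakdown, stood at 27.9, 50.3 and 153 CPM, a 5.47-fold difference (3.58 to 8.62). Gls2, which frees ammonia from glutamine, stood at 61.0, 119 and 285 CPM, a 4.68-fold difference (3.51 to 6.34). In each of these the 3 groups kept the same order, and their counting intervals did not overlap except for the upper end of the pericentral and the lower end of the middle group in Hal. Glul ran in reverse, at 83.7, 73.9 and 29.3 CPM, so that the periportal group was 2.86-fold lower. Pericentral and middle groups were alike in Glul within counting error, which rested on 81 and 69 UMIs. The Glul ratio came within 2-fold under 5 of 12 alternatives, with log2 ratios down to -0.71 when cells of 2 gates were kept, and the Cps1 ratio under 3, down to 0.77 when all ranked cells were split at the median. Pck1 did not follow the periportal pattern, at 739, 515 and 706 CPM, with an outer fold of 0.956 (0.855 to 1.07) and the middle group lowest.

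Thinning each cell to 1000 UMIs gave the same order for the steepest gene, with an Sds UMI in 1.98% of pericentral, 15.0% of middle and 41.8% of periportal cells. Without thinning these shares were 9.41%, 26.5% and 60.2%. The share of thinned cells with a Glul UMI was 7.43%, 9.50% and 1.99%. The antisense neighbour of Sds, Plbd2, stood at 9.30, 12.8 and 19.5 CPM over the same groups, far under the Sds values, and Spryd4, beside Gls2, at 39.3, 27.8 and 46.4 CPM.

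**Figure D2:**
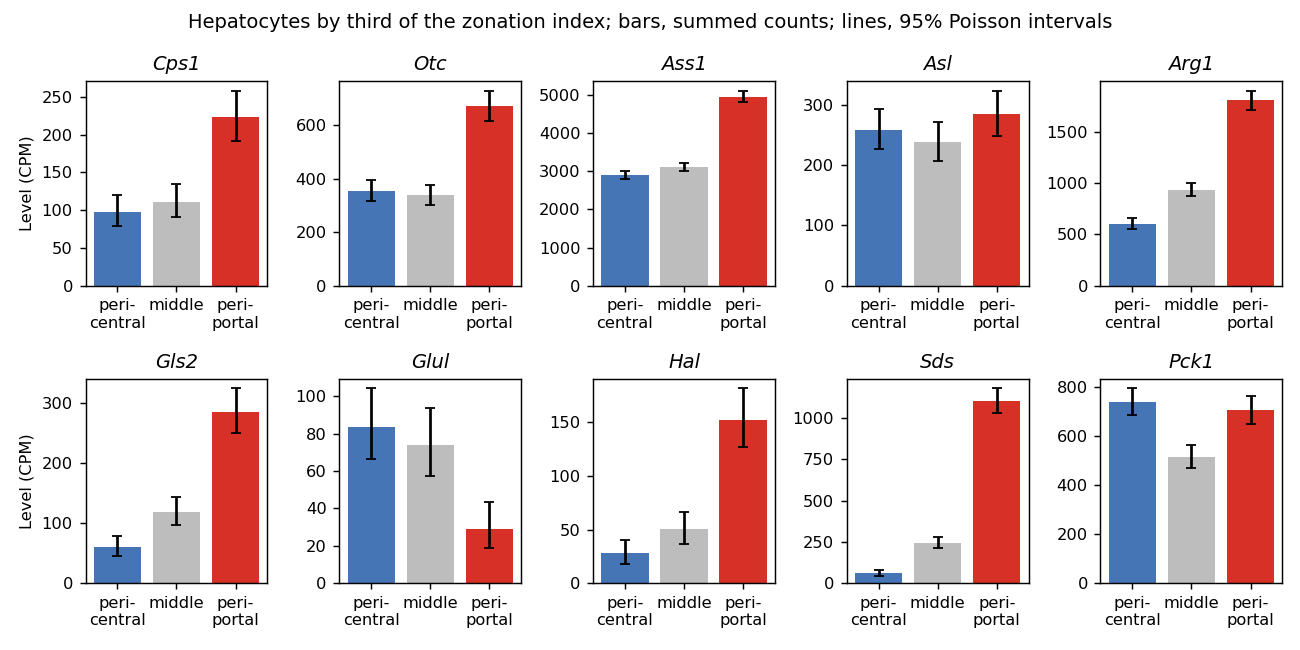
Level in CPM (bars, linear axes from 0; lines, 95% Poisson intervals of the summed counts) of the 10 genes in the pericentral (202), middle (200) and periportal (201) hepatocytes. Sds, Hal, Gls2 and Arg1 climb from left to right, Glul is lowest in the periportal group, and Asl and Pck1 show no such slope.

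Other measures moved with the same ranking. The gate markers summed to 31109, 48602 and 63675 CPM, 4 acute-phase genes to 1015, 2554 and 5579 CPM, and Alb stood at 4961, 7486 and 10053 CPM. Median UMIs per cell were 3594, 3388 and 3247, and the median mitochondrial share 0.0762%, 0.106% and 0.124%. The part of these in the zonal values was not tested. Taking Alb, the gate markers and the score genes out of the total changes the scale alone, and gave log2 ratios of 3.85 for Sds, 1.61 for Arg1 and -1.05 for Glul, beside 3.77, 1.55 and -1.07. The score depends on its leading genes. Without Mup20 and Akr1c6, 408 cells could be ranked, and 7 genes passed 2-fold on the periportal side, with Otc at a log2 ratio of 1.44 and Ass1 at 1.43. With the hepatocyte gate doubled, 7 genes passed as well, with Otc at 1.18 and Ass1 at 1.07. The 40 hepatocytes too low in score genes to be ranked had Sds at 1443 (95% interval 1227 to 1685) and Asl at 544 CPM (415 to 701), both above the intervals of the periportal group. Their Ass1 (5417 CPM), Arg1 (1914), Gls2 (381) and Hal (191) overlapped that group in counting error, as did Cps1 (163), Otc (535) and Glul (18.1), which were lower. Pck1 stood at 916 CPM (746 to 1113).

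In the wider list, 44 of 74 genes had enough counts, and their median log2 ratio of 0.0032 lay near that of all genes. On the periportal side, 4 were at least 2-fold higher, the amino acid carrier Slc38a4 (166 against 52.7 CPM), Amdhd1 of histidine breakdown (354 against 128 CPM), glucose-6-phosphatase G6pc (42.7 against 8.27 CPM) and Aass of lysine breakdown (142 against 55.8 CPM). Of the other histidine genes, Uroc1 stood at 133 against 73.4 CPM and Ftcd at 188 against 108 CPM, both within 2-fold. On the pericentral side, 4 were higher, asparagine synthetase Asns (134 against 17.1 CPM), the polyamine genes Sat1 and Srm, and ornithine aminotransferase Oat (287 against 129 CPM), which is known to share the pericentral rim with Glul. Oat stood at 226 CPM in the middle group, whose counting interval touched that of the pericentral group.

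A second way to divide hepatocytes gave another picture. Split at the median share of Alb UMIs, 321 cells had a high share (median 0.966%) and 322 a low share (median 0.157%). None of the 10 genes differed by 2-fold in either direction, where 5.76% of 5449 genes were as much higher in the high-albumin cells and 0.128% as much lower. Cps1 came nearest on the high side, at 178 against 101 CPM, a fold of 1.77 (95% interval 1.43 to 2.19). Pck1 was nearest on the low side, at 487 against 854 CPM, a fold of 0.570 (0.519 to 0.626). Asl, at 212 against 334 CPM, had a fold of 0.635 (0.548 to 0.735), and Ass1, at 3248 against 4113 CPM, one of 0.790 (0.760 to 0.821). The zonal genes Sds, Hal and Gls2 had folds of 0.850, 1.05 and 1.05. Otc, the mitochondrial enzyme after Cps1, had a fold of 0.916 (0.819 to 1.02). The median periportal share was 41.9% in the high-albumin and 12.0% in the low-albumin cells. Of 53 wider-list genes with enough counts, Slc38a4 was at least 2-fold higher (167 against 33.9 CPM) and none was lower.

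**Figure D3:**
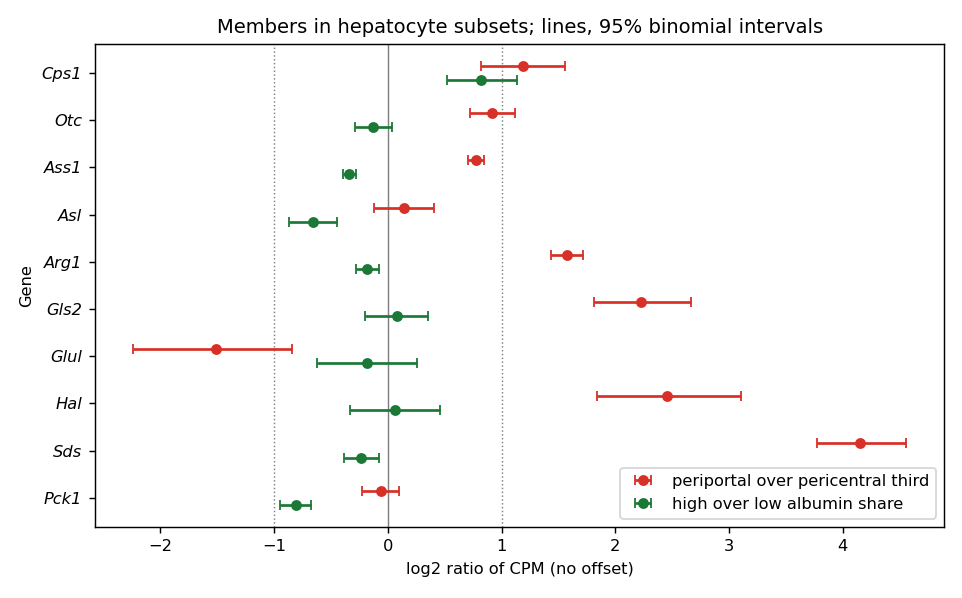
Ratio of CPM (log2 scale, no offset; lines, 95% binomial intervals) for the 10 genes between the periportal and pericentral groups (red) and between hepatocytes of high and low albumin share (green). The red points run from a fold of 0.350 for Glul to 17.8 for Sds, while every green point lies between the dotted lines at 2-fold.

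Which of the genes sat in the same cells was counted in 643 hepatocytes thinned to 1000 UMIs each. For 41 of 45 pairs, at least 5 cells with both genes would follow from the product of the single shares, and 10 of these pairs were found together at least 1.5 times as often. Hal and Sds shared 22 cells where the product gives 9.46, and Gls2 and Sds shared 44 where it gives 19.9. Arg1 paired above its product with Sds (135 against 81.1 cells), with Hal (37 against 21.3) and with Gls2 (77 against 44.8). Glul and Sds made the pair farthest below the product, with 3 cells against 7.56. The consecutive enzymes Ass1 and Asl shared 122 cells where the product gives 116, and Cps1 and Otc 30 against 24.0. These counts are a description with no test, and without thinning 3 pairs in place of 10 reached 1.5 times. Every counted pair without Glul lay above its product. Pairs of other genes were not counted, so 10 pairs cannot be read as particular to these genes. Thinning evens out depth but not the share of RNA that a cell's other genes take up.

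**Figure D4:**
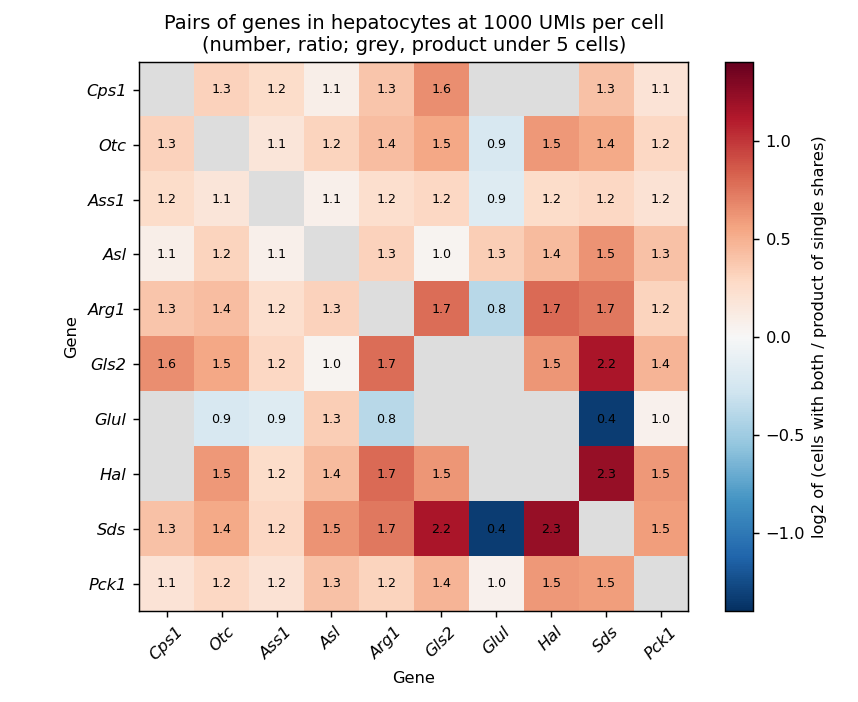
Pairs of the 10 genes in 643 hepatocytes at 1000 UMIs per cell, coloured by log2 of the number of cells with both genes over the product of the single shares, with the ratio printed in each square. The darkest red squares are Hal with Sds at 2.3 and Gls2 with Sds at 2.2, the darkest blue is Glul with Sds at 0.4, and grey squares rest on a product under 5 cells.

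Outside hepatocytes, Arg1 was highest in macrophages. The 1955 macrophages, gated on at least 5 of 8 markers, were divided by marker genes into cells with Kupffer markers (585), with Gpnmb-group markers (677), with at least 0.1% of their UMIs from the elastase gene Mmp12 (466), and smaller groups. Arg1 stood at 36.7 CPM in Kupffer-marker, 115 in Gpnmb-marker and 301 in Mmp12 macrophages, and at 8.67 CPM in 255 monocytes. The Gpnmb group was 3.15-fold (95% interval 2.51 to 3.98) and the Mmp12 group 8.20-fold (6.62 to 10.3) above the Kupffer group. On the scale with 20 CPM added, the 95% interval of the Mmp12 log2 ratio was 2.21 to 2.80, and the ratio was 1.60 when cells that also carried markers of another subset were kept in the Kupffer group. The counting intervals of these 3 macrophage groups and of the monocytes did not overlap.

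A few cells carried most of this signal. Only 113 of 1955 macrophages (5.78%) held at least 5 Arg1 UMIs, and these held 1270 of the 1929 Arg1 UMIs. They made up 80 of 466 Mmp12 macrophages (17.2%), 29 of 677 Gpnmb-marker cells and 1 of 585 Kupffer-marker cells. The highest single macrophage held 62 Arg1 UMIs, more than the 51 of the highest hepatocyte. Median UMIs per cell were 4044 in the Kupffer-marker, 5853 in the Gpnmb-marker and 8290.5 in the Mmp12 group. With cells thinned to 1000 UMIs, an Arg1 UMI was found in 18.2% of Mmp12, 9.90% of Gpnmb-marker and 3.59% of Kupffer-marker macrophages. Hepatocyte RNA in these cells, read from the 15 gate markers, ran opposite, at 1319, 908 and 605 CPM in the Kupffer, Gpnmb and Mmp12 groups. Per 1000 gate-marker UMIs there were 497 Arg1 UMIs in Mmp12, 127 in Gpnmb-marker and 27.8 in Kupffer-marker macrophages, beside 24.1 in hepatocytes. Hepatocytes were gated on a high share of these markers, so their ratio is not independent of the gate. The part of hepatocyte RNA in the Arg1 of each group, and so in the folds over the Kupffer group, was not tested. In plasma cells, a class that should lack the gene, Arg1 stood at 20.1 CPM.

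Among the 16 classes compared, Kupffer-marker macrophages had the highest Cps1 and Pck1 outside hepatocytes. For Pck1 the counting interval was clear of the next class. For Cps1 it overlapped that of the next class, cells with both Kupffer and Gpnmb markers (12.8 CPM, 2.64 to 37.4). Pck1 stood at 85.8 CPM there (95% interval 74.7 to 98.2), with 213 UMIs, against 7.33 CPM in Gpnmb-marker and 10.1 CPM in Mmp12 macrophages. Cps1 stood at 35.1 CPM (28.1 to 43.2), with 87 UMIs, against 4.81 and 4.01 CPM, and Otc at 28.2, 8.24 and 5.90 CPM. Ass1 had the same order, at 77.0, 59.3 and 38.2 CPM, while Asl, at 31.4, 48.8 and 40.6 CPM, was lowest in the Kupffer-marker group. Hepatocyte RNA was highest in the same Kupffer-marker cells. Per 1000 gate-marker UMIs they held 26.6 Cps1 and 65.1 Pck1 UMIs, where hepatocytes held 3.07 and 14.4. The hepatocyte gate was set on these markers, so this base is not independent of it. Per 100 Ass1 UMIs they held 45.5 Cps1 UMIs, where hepatocytes held 3.86. Per 100 Alb UMIs they held 5.25 Cps1 and 12.9 Pck1 UMIs, where hepatocytes held 1.96 and 9.20. The albumin base is itself not constant, since Kupffer-marker cells held 362 and hepatocytes 78.0 Alb UMIs per 100 Ttr UMIs. The part of hepatocyte RNA taken up or stuck to these cells in their Cps1 and Pck1 was not tested. The glutamate carrier Slc1a2 gave 75 UMIs in Kupffer-marker cells, 30.2 CPM, and 1 UMI in hepatocytes.

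Over the 10 genes, 8 had enough counts to compare Gpnmb-marker with Kupffer-marker macrophages, and Arg1 was higher while Cps1 and Pck1 were lower, beside 2.22% of 8794 genes higher and 5.44% lower. For Mmp12 against Kupffer-marker macrophages, 7 had enough counts, with the same 3 past 2-fold, beside 2.93% of 8767 genes higher and 5.82% lower. The 2 comparisons share the Kupffer-marker cells. In the wider list the mitochondrial aspartate-glutamate carrier Slc25a13, which supplies aspartate for the Ass1 step, was at least 2-fold higher in Mmp12 macrophages (45.8 against 8.87 CPM), 1 of 36 genes. The 4 lower genes were Tcf7l2 (38.7 against 196 CPM), Tat, Slc1a2 and Uroc1, and the same 4 were lower in the Gpnmb group, of 38 genes. Nos2, whose product competes with arginase for arginine in inflammatory macrophages, gave no UMI in Gpnmb-marker macrophages (95% interval 0 to 0.845 CPM). The arginine carrier Slc7a2 stood at 29.96 CPM in Mmp12 and 10.9 CPM in Kupffer-marker macrophages, within 2-fold after the offset.

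**Figure D5:**
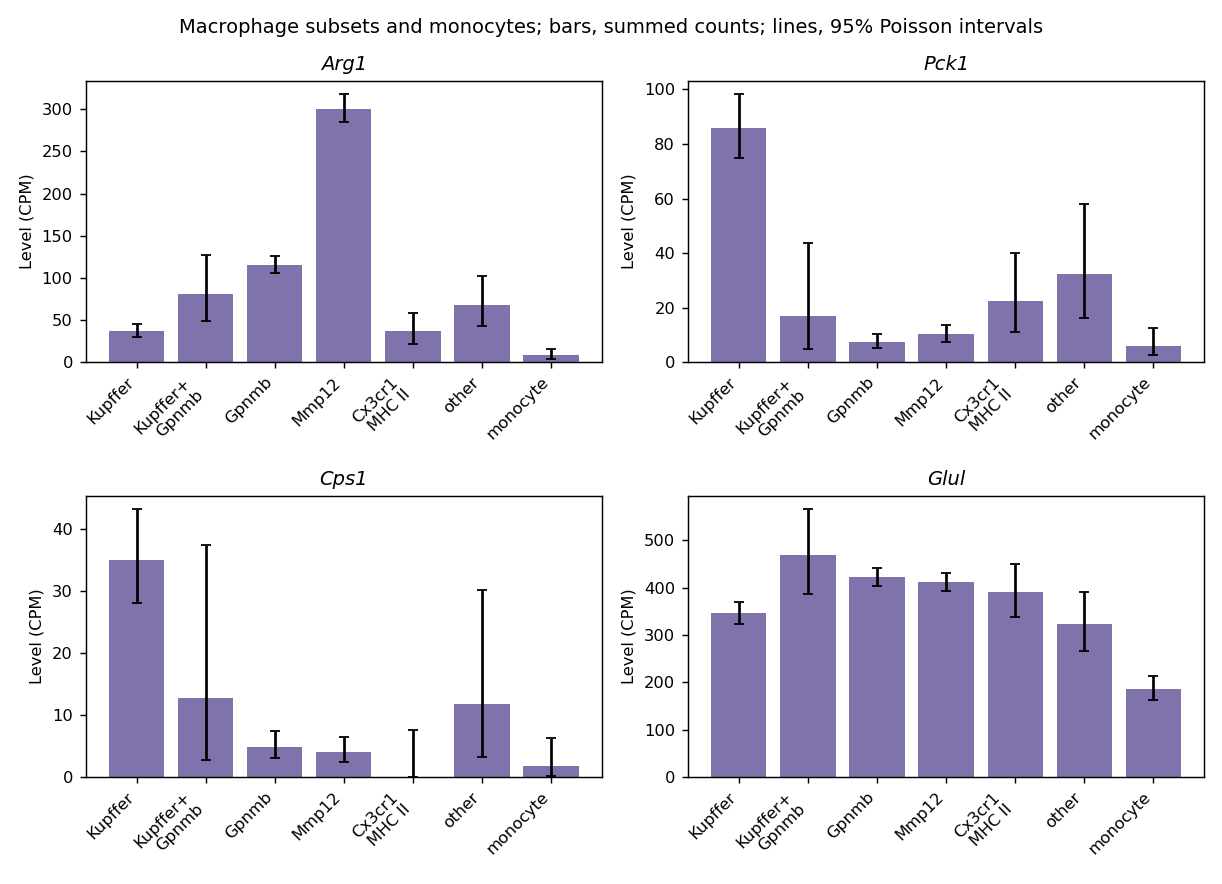
Level in CPM (bars, linear axes from 0; lines, 95% Poisson intervals of the summed counts) of Arg1, Pck1, Cps1 and Glul in macrophage groups and monocytes. Arg1 peaks in Mmp12 macrophages at 301 CPM, Pck1 and Cps1 peak in Kupffer-marker macrophages at 85.8 and 35.1 CPM, and Glul stays between 324 and 470 CPM in all macrophage groups with 186 CPM in monocytes.

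Glul was a macrophage gene in this matrix. It stood at 470 CPM in cells with both Kupffer and Gpnmb markers, 422 in the Gpnmb, 412 in the Mmp12, 391 in the Cx3cr1 and MHC class II, 345 in the Kupffer and 324 CPM in the remaining macrophages. Neighbours in this order overlapped in their counting intervals, down to a gap before monocytes at 186 CPM. Erythroid cells (160 CPM), neutrophils (145) and mesothelial cells (126) followed. Plasma cells were lowest, at 9.74 CPM. The 16 endothelial cells stood at 494 CPM on 25 UMIs.

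Ass1 had its own order outside hepatocytes. T and NK cells stood at 408 CPM (95% interval 321 to 511) with 75 UMIs in 41 cells, and progenitors of granulocytes and monocytes at 319 CPM (296 to 344), where 86.2% of 189 cells held a UMI. These 2 did not differ beyond their counting intervals. Monocytes, at 166 CPM, stood above Gpnmb-marker macrophages at 59.3 and Mmp12 macrophages at 38.2 CPM. Gate markers summed to 310 CPM in the progenitors, 365 in monocytes, 533 in T and NK cells, 605 in Mmp12 and 908 in Gpnmb-marker macrophages. Per 1000 gate-marker UMIs, the progenitors held 1029 Ass1 UMIs and hepatocytes 79.5. Hepatocytes were gated on these markers, and the part of hepatocyte RNA in the Ass1 of the other classes was not tested.

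Hal, the gene of the 10 with the fewest UMIs in the whole matrix, also appeared in mesothelial cells, the lining of the liver surface. It stood there at 14.8 CPM (95% interval 11.3 to 19.1) from 60 UMIs in 486 cells. Progenitors of granulocytes and monocytes stood at 14.4 CPM and monocytes at 13.9 CPM, with intervals that overlap. The highest Hal value outside hepatocytes, 17.0 CPM in basophils and mast cells, rested on 4 UMIs. Plasma cells stood at 0.61 CPM on 1 UMI. Outside hepatocytes Gls2 did not reach 10 CPM in any class. Sds was highest there in basophils and mast cells, at 21.3 CPM on 5 UMIs (95% interval 6.91 to 49.6). It stood at 12.4 CPM in Gpnmb-marker macrophages and 8.52 CPM in plasma cells, both inside that interval.

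The genes most like 4 of the enzymes were ranked by the correlation of log2(CPM + 20) over the 16 classes, among 7209 genes. This is a description over classes from 1 pooled sample. Cps1 was followed most closely by Uroc1 (r = 0.98), Aldh1l1, Vtn and Dpyd, all highest in hepatocytes, and Ass1 by Haao (r = 0.96) and Got2. Vtn is a marker of the hepatocyte gate, which partly fixes its order over the classes. Arg1 was followed by Pnpla7 (r = 0.90), and Glul by Sdcbp (r = 0.97), Cln8 and Tpp1, which were highest in macrophage groups. Hepatocytes were then left out, a choice made after the data were seen. Over the remaining classes, Arg1 was nearest to Atp6v0d2 (r = 0.93) and Gpr137b, and Ass1 to Ppil1 (r = 0.91) and Pclaf. Cps1 was nearest to the resident Kupffer gene Timd4 (r = 0.91). Timd4 is a marker of the Kupffer gate, so its likeness to Cps1 is not independent of how that class was made.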

How the data were processed

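The deposited files hold unnormalized UMI counts for each gene in each cell, as the authors made them. Reads were set against GRCm38, per the submitters' processing notes. How reads were aligned and counted, and how barcodes were taken as cells, is not given in the sources used. The matrix labelled CluKO held 4694 cells and 28912707 UMIs, and the wild-type matrices, used for depth alone, held 102125170, 53387027 and 79364101 UMIs. No barcode of the matrix labelled CluKO occurred more than once.

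A cell was kept, as 4616 were, if it had at least 200 genes and no more than 20% mitochondrial counts. Classes were gated on UMIs of marker genes without clustering. No doublet caller was run, and 85 cells that passed the gates of more than 1 class were set aside. In overlaps among myeloid gates, progenitors came first, then neutrophils, macrophages and monocytes. Gate thresholds were set after the data were seen, and 338 cells stayed in no class. The 10 genes, the wider list and the comparisons were chosen with earlier results of these data known.

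Counts were summed per class and scaled to 1000000 UMIs (CPM). Each UMI tags the poly-A end, so levels were not divided by gene length, and genes are compared between cells, not with each other. Intervals are at 95% and cover counting error only. They are exact Poisson for levels, conditional binomial for ratios and Clopper-Pearson for shares. A gene counts as higher or lower at 2-fold of CPM + 20, among genes that reached 30 UMIs on either side. The 10 genes are named in the hepatocyte comparisons, and in macrophages those past 2-fold and others by role. Of the wider list, genes past 2-fold are named, of which some are not reported here. With 1 pooled sample there is no test and no p-value. Work was done in Python 3.11.15 with numpy 2.4.6, scipy 1.17.1, pandas 2.3.3 and matplotlib 3.10.9. Ratios and intervals were run on simulated Poisson counts, the error that the intervals assume. That run checks the code and says nothing of variation between cells or mice. Positions come from the GENCODE M21 annotation. Alternatives changed the offset, the count minimum, the gates, the filter on cells, the weighting of cells, the score genes, the totals and the thinning.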

Additional observations from a re-analysis of the deposited data

How the results depend on the processing

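With 1 pooled sample, agreement between mice is unknown, and no replicate could be left out. No paired analysis was possible because the 6 samples labelled CluKO share 1 matrix without sample names. Against other cells, all 70 member values over 7 alternatives kept their direction and stayed past 2-fold. Across the hepatocyte zones, 72 of 72 values of the 6 genes past 2-fold kept their direction over 12 alternatives, and 64 stayed past 2-fold. The low Glul count in the periportal group is the least firm of these. The number of genes at least 2-fold lower was 0 in place of 1 with the mean of per-cell CPM (log2 ratio -0.87), with the hepatocyte gate halved (-0.87), with cells of 2 gates kept (-0.71), with all ranked cells split at the median score in place of outer groups (-0.94) and with a score without Cyp genes (-0.92). With the hepatocyte gate doubled, 7 genes in place of 5 were at least 2-fold higher, with Otc at 1.18 and Ass1 at 1.07. Cps1 also fell under 2-fold with cells of 2 gates kept (0.89), with the split at the median (0.77) and without Cyp genes (0.81). By albumin share, 1 gene was at least 2-fold lower with the hepatocyte gate doubled, Pck1 at -1.23. Without thinning, 3 pairs in place of 10 were found together at least 1.5 times as often as the product. The cause of these shifts was not tested. The log2 ratio of Arg1 between Gpnmb-marker and Kupffer-marker macrophages ran from 1.12 to 1.53, and that between Mmp12 and Kupffer-marker macrophages from 1.60, with cells of other subset markers kept, to 2.87, with an offset of 5 CPM. Hal, Gls2, Cps1 and Glul rest on few UMIs per hepatocyte, which limits the precision of their zonal values.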

Other observations

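A small set of hepatocytes was high in Clu. The share of all genes that differed in this split was not counted, so the differences cannot be read as particular to these genes. The 28 hepatocytes with at least 0.5% of their UMIs from Clu had Ass1 at 430 CPM against 3914 CPM in the other 615, Arg1 at 112 against 1189 CPM, Cps1 at 43.9 against 149 CPM, Otc at 127 against 472 CPM, Asl at 87.9 against 284 CPM, Hal at 9.77 against 83.0 CPM, Pck1 at 9.77 against 713 CPM and Sds at 43.9 against 511 CPM. Gls2 gave no UMI in them (95% interval 0 to 18.0 CPM), against 170 CPM. In these 28 cells Hal and Pck1 rested on 2 UMIs each (95% interval 1.18 to 35.3 CPM), and Cps1 and Sds on 9 UMIs each. Glul was on the other side, at 146 against 55.6 CPM, from 30 UMIs. Their Alb stood at 16549 CPM and their gate markers at 67125 CPM, both above the 6472 and 44399 CPM of the other 615. Without these cells the zonal log2 ratios were 3.76 for Sds, 1.54 for Arg1 and -1.11 for Glul.

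Cycling hepatocytes, 162 cells with at least 3 of 5 cycling markers, are set beside the 481 others. Cycling cells were deeper, with a median of 4355.5 UMIs per cell against 3103, and the part of depth in this split was not tested. Cps1 stood at 150 against 137 CPM, Otc at 449 against 446, Arg1 at 1118 against 1107 and Ass1 at 3315 against 3825 CPM. Asl stood at 244 against 282, Gls2 at 149 against 162, Glul at 76.5 against 55.5 and Hal at 76.5 against 78.3 CPM. Sds stood at 426 against 501 and Pck1 at 545 against 717 CPM.

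Other genes of arginine and ornithine metabolism had sites outside hepatocytes. The mitochondrial arginase Arg2 was highest in neutrophils, at 60.1 CPM from 78 UMIs. Oat stood at 385 CPM in mesothelial cells, above the 214 CPM of hepatocytes.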
